A study of Mus musculus with 8 samples.

Results

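Kit ligand (Kitl) with its receptor Kit, and the chemokine Cxcl12 with its receptor Cxcr4, are 2 ligand and receptor pairs that act on germ cells. They were followed here in embryonic mouse gonads. Every probe set annotated to one of these 4 genes was taken, whatever its values, which gave 6 of the 12488 probe sets and 4 of the 8251 genes measured on the Affymetrix MG_U74Av2 array. Cxcl12 had 3 probe sets and the other genes 1 each. There were 8 arrays, 1 for each combination of sex, genotype and stage, with no replicate: wild-type (WT) females and males, and Wnt4 knock-out (KO) females and males, each at embryonic days 12.5 (E12.5) and 14.5 (E14.5). All were whole gonads taken from embryos staged by their morphology. The sources used here do not state the strain, the form of the Wnt4 allele or the number of gonads behind each array. Values are log2 signals after each array was centred on a common median, and values under a floor of 6.99 were treated as not measurable.

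Kitl is made by somatic cells of the gonad as a membrane-bound and a secreted form, and it signals through the receptor tyrosine kinase Kit on primordial germ cells, where it supports their survival, proliferation and movement. Cxcl12 is secreted along the route to the genital ridge and attracts germ cells through Cxcr4, a G protein-coupled receptor that is also used by endothelial and blood cells. Wnt4 is a Wnt ligand on which the supporting cells of the fetal ovary depend, and which keeps out male-type vessels and steroid-producing cells. In a whole gonad, fewer cells of a type and less RNA per cell cannot be told apart.

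Some facts of the arrays bear on every value below. Across probe sets, r was 0.979 to 0.997 among the 6 arrays that are not E14.5 males and 0.996 within the pair of E14.5 males, but 0.883 to 0.907 between the latter and any other array. The gap between the 3' and 5' actin probe sets, a sign of RNA quality, was 0.96 to 1.37 on the 4 male arrays and 0.48 to 0.77 on the 4 female arrays. Its part in the sex and stage differences below was not tested. Wnt4 itself was lower in the KO of each pair: the E12.5 arrays read 10.19 (WT) and 8.59 (KO) for females and 9.26 and 8.34 for males, and the E14.5 arrays 9.45 and 8.32 for females and 9.42 and 9.19 for males. The sources used here do not state whether this probe set covers the deleted sequence. Xist was at 7.10 to 8.13 in females and at 4.07 to 4.79 in males. The Y-linked Eif2s3y was at 6.91 to 8.12 in males, at 4.86 to 6.04 in 3 of the females and at 7.63 in the library labelled WT female E14.5, which goes against that label; there Xist was lowest of the females.

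Fitted differences come from limma on all 8 arrays, with p-values adjusted (Benjamini-Hochberg) over 8452 probe sets that rose above the floor on at least 2 arrays. With no replicates, the error is taken from how far the genotype difference varied between the stages, or, for the genotype difference at 1 stage, between the sexes. Differences between single arrays have no test.

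The promoters of both ligands are shown because, of the fitted genes, the ligands had the larger differences between single WT and KO arrays described below. No Kitl difference between WT and KO passed at an adjusted p under 0.05. For Cxcl12 only probe set 160511_at passed, over both sexes at E12.5, in a model first used after results had been seen. Any part of the promoters in these differences was not tested. Each window runs from 250 bases before to 50 bases after a RefSeq start site in GRCm38.p6, and all 4 genes had one. A match to CTTTGAT, the core of the site bound by the TCF/LEF factors of canonical Wnt signalling, was sought on both strands, a TATA box (TATAAA) on the strand of the gene, and a GC box (GGGCGG) on both strands. Capitals mark the TCF/LEF match in the Cxcl12 window, which reads on the opposite strand, and the TATA box in the Kitl window.
Cxcl12: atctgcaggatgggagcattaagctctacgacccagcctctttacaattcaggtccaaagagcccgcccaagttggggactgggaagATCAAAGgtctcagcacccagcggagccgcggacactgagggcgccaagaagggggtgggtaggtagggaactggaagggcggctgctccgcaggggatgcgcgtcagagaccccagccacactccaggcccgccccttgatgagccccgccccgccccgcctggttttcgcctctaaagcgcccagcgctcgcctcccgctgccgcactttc
Kitl: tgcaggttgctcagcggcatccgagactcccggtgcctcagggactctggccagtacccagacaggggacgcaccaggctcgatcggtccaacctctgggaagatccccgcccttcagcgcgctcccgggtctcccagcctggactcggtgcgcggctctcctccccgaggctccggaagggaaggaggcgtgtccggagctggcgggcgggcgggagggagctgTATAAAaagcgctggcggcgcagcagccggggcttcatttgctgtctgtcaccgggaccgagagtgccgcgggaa

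The Cxcl12 window lies at chr6:117168285-117168584 on the plus strand, at the start of the gene (chromosome 6, 117168535 to 117181368), and is 64.7% G and C. Its TCF/LEF match begins at position -163 from the start site, and it holds 5 GC boxes but no TATA box. The Kitl window lies at chr10:100015571-100015870 on the plus strand, within the annotated 5' end of the gene (chromosome 10, 100015615 to 100100416), with its TATA box at -25. It holds 3 GC boxes and no TCF/LEF match. Neither receptor had a TCF/LEF match: Kit (chromosome 5, 75574987 to 75656722) had 1 GC box, and Cxcr4 (chromosome 1, 128588199 to 128592299) had a TATA box at -30 and 3 GC boxes. Of all 32851 windows of this length, 3.73% held the TCF/LEF match, 8.32% the TATA box and 35.7% a GC box. A match is a run of letters and not a measured binding site.

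**Figure D1:**
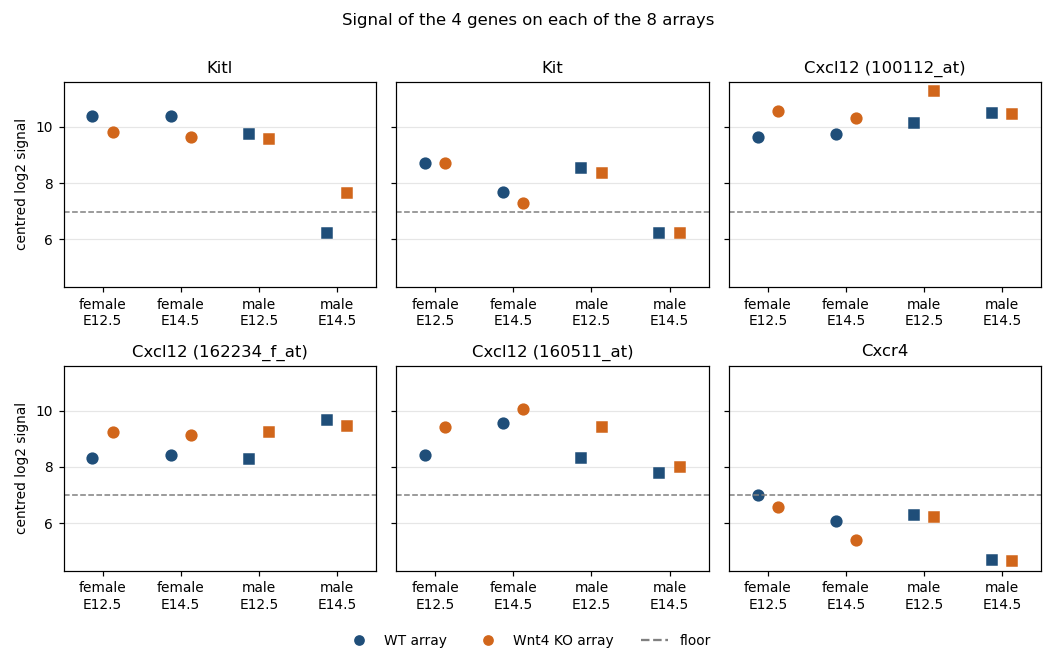
Centred log2 signal (vertical axis) of each probe set on the 8 arrays, grouped by sex and stage, with WT arrays in blue, KO arrays in orange and the floor of 6.99 as a dashed line. Each point is 1 array, so there are no error bars. Kitl and Kit drop on the E14.5 male arrays, the KO point lies above the WT point for all 3 Cxcl12 probe sets in both sexes at E12.5, and Cxcr4 lies under the floor throughout.

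Kitl, the ligand of the first pair, was highest in WT females and lowest in E14.5 males. Its signal in WT females was 10.40 at E12.5 and 10.39 at E14.5, and in KO females 9.80 and 9.64. In males at E12.5 it was 9.74 in WT and 9.57 in KO. At E14.5 it was 7.65 in the KO male and 6.23, under the floor, in the WT male. So the WT females stood at the top, the KO females and the E12.5 males followed, between 9.57 and 9.80, and the E14.5 males lay apart. The spread of a difference of 2 arrays in the fit was 0.29, and none of the neighbours among those 4 middle arrays differed by more.

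Between E12.5 and E14.5, Kitl fell in males by 2.34 ± 0.20 (SE; limma, adjusted p = 0.000364) while the difference in females was -0.08 ± 0.20 (adjusted p = 0.846). The fitted fall in males depends on the floor, since the WT male was under it at E14.5. The single pairs gave at least 6.77-fold in WT males and 3.78-fold in KO males. The difference between the sexes in this stage change was itself past the threshold, at -2.26 ± 0.29 (limma, adjusted p = 0.00214), as it was for 33.8% of the fitted probe sets in that direction. In males as a whole, 39.9% of the fitted probe sets fell and 38.0% rose over the same interval, so a fall here is shared with a large part of the array. Leaving out any 1 array left both Kitl calls past the threshold, with a highest adjusted p of 0.0143 for males and 0.0379 for the difference.

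At E14.5 Kitl was lower in males than in females, with a difference of -2.70 ± 0.20 (limma, adjusted p = 0.000251), against 38.0% of fitted probe sets lower in males. The WT pair differed by at least 10.6-fold and the KO pair by 3.98-fold, where 14.0% and 10.7% of the fitted probe sets were at least 2-fold lower. At E12.5 the male minus female difference was -0.44 ± 0.20 (limma, adjusted p = 0.192). In the single pairs it was -0.65 in WT and -0.23 in KO.

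In KO females Kitl was lower than in WT females at both stages, with differences of -0.59 at E12.5 and -0.75 at E14.5, or 1.51-fold and 1.68-fold. The fitted difference was -0.67 ± 0.20 and did not pass (limma, adjusted p = 0.433). Without the WT female array of E14.5, whose label is in doubt, it was -0.59 (adjusted p = 0.906). Testis markers were also higher on that WT array than on its KO partner: the summed log2 signal was 12.27 against 11.58 for Sertoli markers and 12.15 against 11.30 for Leydig and steroidogenic markers. Cyp17a1, an androgen synthesis enzyme gene, was at 10.36 and 8.13, and the Sertoli list's Aard at 9.87 and 8.50. Their part in the E14.5 female values was not tested. No probe set on the array passed in KO females (0.0% of 8452, with 962 at an unadjusted p under 0.05). Of the 3 genes fitted here, Kitl and Cxcl12 had such an unadjusted p. In males the KO minus WT difference was -0.18 at E12.5 and at least 0.66 at E14.5, so the pairs had opposite signs, and the fitted value was 0.24 ± 0.20 (limma, adjusted p = 0.817). The KO effect in males minus that in females was 0.91 ± 0.29 for Kitl (limma, adjusted p = 0.434). Nothing passed in KO males (0.0%, 405 at an unadjusted p under 0.05) or for that difference (0.0%, 971). Without both E14.5 male arrays the value in KO males was -0.18.

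Kit, the receptor, differed more between stages than between genotypes. Its signal at E12.5 was 8.71 in the WT female, 8.73 in the KO female, 8.55 in the WT male and 8.37 in the KO male. At E14.5 it was 7.68 in the WT female and 7.30 in the KO female, and 6.23 and 6.22, both under the floor, in the WT and KO male. Every E12.5 array was thus above every E14.5 array, and within E14.5 both females were above both males.

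Kit fell between the stages by 1.23 ± 0.11 in females (limma, adjusted p = 0.0103) and by 1.48 ± 0.11 in males (limma, adjusted p = 0.000255), the second value depending on the floor and at -2.24 ± 0.11 without one. In females 14.6% of the fitted probe sets fell. The pairs gave 2.05-fold in WT and 2.69-fold in KO females, where 0.45% and 0.26% of the fitted probe sets were at least 2-fold lower. In males they gave at least 2.96-fold in WT and at least 2.61-fold in KO, against 13.7% of fitted probe sets in each. In females the call was lost whichever 1 of the 8 arrays was left out, at -1.04 to -1.43 with adjusted p of 0.111 to 0.151, and without both E14.5 male arrays, at -1.23 and adjusted p = 0.111, and with no filter (0.0716); over all alternatives the adjusted p ranged from 0.00142 to 0.151. With 1 array or both E14.5 male arrays left out, every other call in that comparison was lost too, so that loss was not particular to Kit. In males the Kit call held each time.

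The stage change of Kit in males minus that in females was -0.24 ± 0.16 (limma, adjusted p = 0.230) with the floor, and -1.01 ± 0.15 (adjusted p = 0.00142; 0.00106 to 0.782 over the alternatives) with no floor. At E14.5 Kit was lower in males, at -0.50 ± 0.11 (limma, adjusted p = 0.0115). This value depends on the floor, since both males were under it, and was -1.26 ± 0.11 with no floor (adjusted p = 7.39e-05). The call was lost with no filter (adjusted p = 0.0793), and when the WT or the KO male of E12.5, the WT female of E14.5, or the WT or the KO male of E14.5 was left out, with values from -0.31 to -0.59 and adjusted p from 0.102 to 0.231. At E12.5 the difference was -0.26 ± 0.11 (limma, adjusted p = 0.179). At that stage none of the fitted members passed, none had an unadjusted p under 0.05, and 16.3% of all fitted probe sets passed in either direction.

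The genotype differences of Kit were small. KO minus WT at E12.5 was 0.015 for females and -0.18 for males, and at E14.5 it was -0.38 for females. The fitted values were -0.18 ± 0.11 in females and -0.09 ± 0.11 in males (limma, adjusted p = 0.528 and 0.856). Without the E14.5 female arrays, either one of them, the first of these was 0.015.

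**Figure D2:**
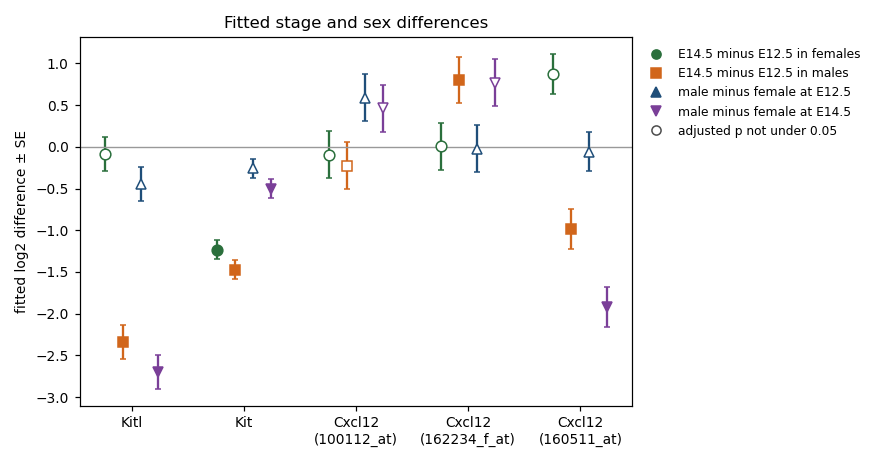
Fitted log2 differences ± SE (vertical axis) between stages in each sex and between sexes at each stage, for the 5 fitted probe sets. Filled symbols passed at an adjusted p under 0.05 and open symbols did not; Kitl in males is at -2.34 between the stages and at -2.70 against females at E14.5, while the 3 Cxcl12 probe sets lie on both sides of 0 in males.

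Cxcl12, the ligand of the second pair, had the largest KO differences of the 4 genes at E12.5, and all 3 of its probe sets showed them. On probe set 100112_at, the brightest on average, the signal at E12.5 was 9.65 in the WT female and 10.57 in the KO female, and 10.13 in the WT male and 11.27 in the KO male. At E14.5 it was 9.73 and 10.29 in WT and KO females and 10.49 and 10.46 in WT and KO males. The KO male at E12.5 stood highest, 0.70 above the next array, and the WT females lowest. The spread of a difference of 2 arrays in the fit was 0.40.

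Probe set 162234_f_at, of a design whose probes can be shared within a gene family, read 8.32 and 9.22 in WT and KO females at E12.5 and 8.27 and 9.23 in WT and KO males. At E14.5 it read 8.43 and 9.13 in females and 9.67 and 9.44 in males. Probe set 160511_at read 8.42 and 9.42 in WT and KO females at E12.5, 8.31 and 9.43 in males, 9.54 and 10.05 in females at E14.5, and 7.77 and 8.00 in males at E14.5. At E12.5 both KO arrays were above both WT arrays on each of the 3. At E14.5 the KO female was above the WT female on each of the 3. The KO male was above the WT male only on 160511_at.

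**Figure D3:**
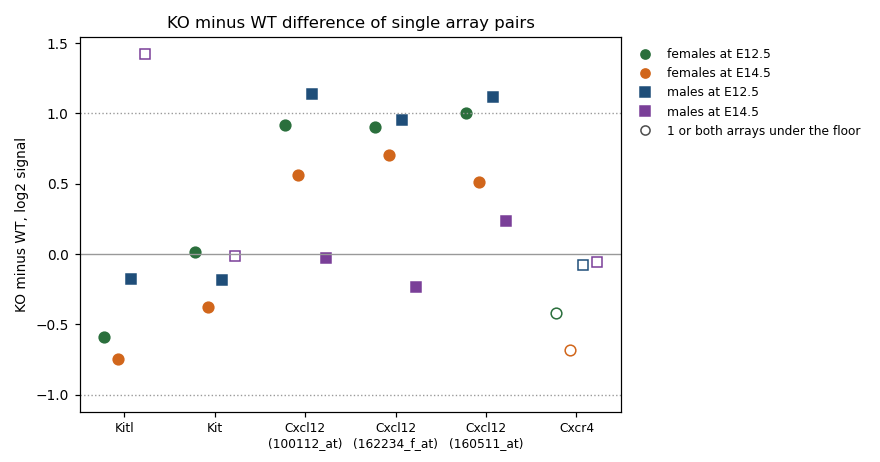
KO minus WT log2 difference (vertical axis) of the 4 array pairs for each probe set, with circles for females, squares for males, open symbols where 1 or both arrays lay under the floor, and dotted lines at a 2-fold difference. The 3 Cxcl12 probe sets lie between 0.90 and 1.14 in both sexes at E12.5 and between 0.51 and 0.70 in females at E14.5, and Kitl lies at -0.59 and -0.75 in females.

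At E12.5 the KO minus WT difference of the 3 Cxcl12 probe sets, in the order 100112_at, 162234_f_at and 160511_at, was 0.92, 0.90 and 1.002 in females and 1.14, 0.96 and 1.12 in males. These are folds of 1.87 to 2.002 in females and 1.94 to 2.20 in males. A difference of at least 2-fold upward was rare in these pairs, at 0.0473% of the fitted probe sets in females (4 of 8452, 1 of them Cxcl12 160511_at) and 0.0711% in males (6 of 8441, 2 of them Cxcl12). Over both sexes the fitted difference at E12.5 was 1.03 ± 0.15 on 100112_at (limma, adjusted p = 0.155), 0.93 ± 0.20 on 162234_f_at (adjusted p = 0.418) and 1.06 ± 0.10 on 160511_at (adjusted p = 0.0433). Thus all 3 probe sets were higher in the KO and 1 of the 3 passed, as did 0.0592% of all fitted probe sets upward in that comparison. The model with a genotype difference at each stage was first used on these data after results had been seen, so this call is not independent evidence.

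The call of this difference was not steady. Its size could hardly move in the refits with an array left out. Without an E12.5 array it was that of the other sex's pair, and without an E14.5 array it was unchanged. Over all alternatives it lay between 0.92 and 1.14 on 100112_at, with adjusted p from 7.46e-05 with no floor to over 0.99 with an array left out. On 160511_at it lay between 1.002 and 1.12. The call on 160511_at was lost when any 1 array was left out, with these same values each time. It was also lost with quantile normalization (limma, adjusted p = 0.105), with no intensity trend (0.324), with no filter and without both E14.5 male arrays (over 0.99 in both). In all of those fits every other call in that comparison was lost too, so the loss was not particular to Cxcl12. The call held in 4 of 16 alternatives.

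At E14.5 the KO minus WT difference was 0.56, 0.70 and 0.51 in females and -0.03, -0.23 and 0.24 in males on the same 3 probe sets. The fitted value over both sexes was 0.27 ± 0.15, 0.23 ± 0.20 and 0.37 ± 0.10, and none passed (0.0% of all fitted probe sets; the unadjusted p was under 0.05 for 353; 160511_at had limma's adjusted p = 0.806). The KO effect at E14.5 minus that at E12.5 was -0.76 ± 0.21, -0.69 ± 0.29 and -0.69 ± 0.15, again with no call (0.0%, 303 at an unadjusted p under 0.05). Averaged over the stages, the KO difference was 0.74 ± 0.28, 0.80 ± 0.28 and 0.76 ± 0.24 in females (limma, adjusted p = 0.436, 0.436 and 0.433) and 0.56 ± 0.28, 0.36 ± 0.28 and 0.68 ± 0.24 in males (adjusted p = 0.794, 0.805 and 0.794). The male minus female difference of the KO effect on 100112_at was -0.19 ± 0.40 (adjusted p = 0.833), and 0.40 without both E14.5 male arrays.

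Across stage and sex the 3 probe sets of Cxcl12 disagreed. In males from E12.5 to E14.5, 160511_at fell by 0.98 ± 0.24 (limma, adjusted p = 0.0145), 162234_f_at rose by 0.80 ± 0.28 (adjusted p = 0.0487) and 100112_at was at -0.23 ± 0.28 (adjusted p = 0.497). No direction can be given for the gene in that comparison. With an array left out, the call on 160511_at held for 2 of 8 arrays (adjusted p of 0.0493 to 0.215) and that on 162234_f_at for 2 of 8 (0.0215 to 0.255). The pairs were as far apart: 162234_f_at was 2.63-fold higher at E14.5 in WT males, where 7.50% of fitted probe sets reached 2-fold upward, and 160511_at was 2.68-fold lower in KO males.

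In females 160511_at was 1.12 higher at E14.5 in WT, where 0.568% of fitted probe sets reached 2-fold upward, and 0.63 higher in KO, for a fitted 0.88 ± 0.24 (limma, adjusted p = 0.0592). The other probe sets were at -0.10 and 0.01. The stage change in males minus that in females was -1.86 ± 0.34 on 160511_at (limma, adjusted p = 0.00660), -0.13 ± 0.40 on 100112_at (adjusted p = 0.784) and 0.79 ± 0.40 on 162234_f_at (adjusted p = 0.135). At E14.5, 160511_at was lower in males, at -1.92 ± 0.24 (limma, adjusted p = 0.00131). By contrast, 162234_f_at was 2.36-fold higher in the WT male, as were 7.69% of fitted probe sets at 2-fold or more. Its fitted difference was 0.77 ± 0.28 (limma, adjusted p = 0.0549). On 100112_at the E14.5 male was higher than the female by 0.76 in WT and by 0.17 in KO. Apart from the change within females, these rest on the E14.5 male arrays, which stood apart. The stage difference between the sexes on 160511_at rests also on its change in females. In WT that change uses the E14.5 array whose label is in doubt. At E12.5 the male minus female difference on 100112_at was 0.48 in WT and 0.70 in KO, with no call in the fit. Which Cxcl12 transcripts each probe set reads was not analysed here.

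Cxcr4, the receptor of the second pair, was under the floor on all 8 arrays and was not fitted. Its signal was 6.98 and 6.56 in WT and KO females at E12.5, 6.29 and 6.21 in WT and KO males, 6.07 and 5.39 in females at E14.5, and 4.70 and 4.64 in males at E14.5. Each E12.5 array was above each E14.5 array, although all values lay in a range treated as not measurable. In a fit with no filter and no floor, chosen after the data were seen, the stage difference was -1.04 ± 0.09 in females and -1.58 ± 0.09 in males, and KO minus WT was -0.55 ± 0.09 in females (limma, adjusted p = 0.332) and -0.07 ± 0.09 in males (adjusted p = 0.903). No fold is given from these values.

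Across the arrays, Kit and Cxcr4 varied alike, with Pearson r of 0.97 over 8 arrays and 0.90 over the 6 without the E14.5 males. All Cxcr4 values lay under the floor, and the arrays share stage, sex and scaling, so this is a description only. Kit and Kitl had r of 0.83 over 8 arrays and 0.06 over the 6. Cxcl12 (100112_at) and Cxcr4 had -0.26 and -0.21. The 3 Cxcl12 probe sets had r of 0.36 to 0.81 with each other over the 6 arrays and of -0.12 to 0.70 over the 8.

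Likeness was sought among genes with a range of at least 1 over the 6 arrays (389 probe sets). Those most like Kit were Klhl24 (r = 0.99), the pluripotency factor Nanog, Cxxc5, Ivns1abp and F2r (0.98 each). Those most like Kitl were Vsnl1 (0.93), Fst, whose product follistatin binds activins, and Tnfrsf19 (0.92 each), the transcription factor Pax8 (0.91) and Anp32a (0.89). For Cxcl12 100112_at they were Cbln1 and Gas5 (0.96 each), Tgfb2 (0.91), Vcam1 (0.90) and Tnc (0.89). For 160511_at the first was Postn (0.96), a matrix protein gene, and for 162234_f_at Tnc (0.93), another. For Cxcr4 it was Mycn (0.99). Over the 6 arrays, 9.79% of the probe sets had an r above 0.9 with Kit, 4.37% with Cxcr4 and 1.03% with Kitl. For Cxcl12 the share was 1.03% with 100112_at and 0.258% with each of 162234_f_at and 160511_at. Over 8 arrays 23.9% of 3403 probe sets had an r above 0.9 with Kit and 37.3% with Kitl, so likeness over all arrays says little.

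The wider pathways were read from lists of known genes. Of 37 genes of Kit signalling, 30 were measured and 26 fitted; none passed in any KO comparison, and 0 to 3 had an unadjusted p under 0.05 (limma). In KO females their median difference was -0.03, against -0.02 over all fitted probe sets, and the largest were Jak2, a kinase that relays receptor signals, at -0.17 ± 0.04, and the adaptor Crkl at -0.17 ± 0.07 (adjusted p = 0.433 and 0.439). Between the stages in females 1 rose and 3 fell, where 8.41% of all fitted probe sets rose and 14.6% fell. Stat3 rose by 0.24 ± 0.06. The kinase subunit gene Pik3ca fell by 0.46 ± 0.11, Jak2 by 0.40 ± 0.04 and the inhibitory adaptor gene Sh2b3 by 0.23 ± 0.05. The Sh2b3 value depends on the floor, since the WT (6.73) and KO (6.68) females of E14.5 were under it. In males 8 rose and 12 fell, near the shares of all fitted probe sets, 38.0% and 39.9%. The docking protein gene Gab1 fell by 1.96 ± 0.08, the kinase gene Fyn by 1.75 ± 0.09 and Map2k1 by 1.60 ± 0.07, with a list median of -0.11 against 0.00 for all.

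Of 29 genes of Cxcl12 signalling, 24 were measured and 20 fitted. None passed in a KO comparison (0 to 4 with an unadjusted p under 0.05, limma), with a median of -0.03 in KO females and 0.04 in KO males. Gnai1, a G protein subunit that relays chemokine receptor signals, had the largest difference in KO females, -0.60 ± 0.10 (adjusted p = 0.433). In females 2 rose and 4 fell between the stages, beside 8.41% and 14.6% of all fitted probe sets. Ackr3, a scavenging receptor for Cxcl12, fell by 0.69 ± 0.08 and the G protein subunit gene Gng2 by 0.81 ± 0.09 (limma, adjusted p = 0.0124 and 0.0110). In males 3 rose and 13 fell, beside 38.0% and 39.9% of all, with a median of -0.44 against 0.00 over all fitted probe sets. Gnai1 fell by 1.84 ± 0.10 and Cd164, a sialomucin linked to Cxcr4, by 1.75 ± 0.07. The Gnai1 value depends on the floor, since the WT (6.76) and KO (6.93) males of E14.5 were under it. At E12.5, 6 were higher in males and none lower, where 7.79% of all fitted probe sets were higher and 8.51% lower. Among the 6 were the kinase gene Ptk2b by 0.59 ± 0.03 and Ackr3 by 0.38 ± 0.08. The Ptk2b value depends on the floor, since the WT female of E12.5 (6.51) was under it.

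Of 25 genes of germ cell migration and adhesion, 21 were measured and 17 fitted, and again none passed in a KO comparison (0 to 3 with an unadjusted p under 0.05, limma). The gap junction gene Gja1 was at -0.38 ± 0.06 in KO females and -0.29 ± 0.06 in KO males (adjusted p = 0.433 and 0.794), and the integrin gene Itga6 at -0.42 ± 0.13 in KO females (adjusted p = 0.433). Between the stages in females 2 rose and 2 fell (8.41% and 14.6% of all fitted probe sets), with Gja1 up by 0.59 ± 0.06 and the cadherin gene Cdh2 down by 0.72 ± 0.09. In males 5 rose and 8 fell, near the shares of all (38.0% and 39.9%). Cdh2 was down by 2.51 ± 0.09 and Ror2, a receptor for Wnt5a, up by 1.51 ± 0.08. The Cdh2 value depends on the floor, since the WT (5.51) and KO (6.33) males of E14.5 were under it.

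Cell type markers were set beside the members. Germ cell markers (12 of 18 measured) summed to 12.36 to 12.71 on a log2 scale over the 8 arrays. The brightest genes weigh most in this sum, and they moved in different directions. In WT males from E12.5 to E14.5, Utf1 went from 10.26 to 11.08 and Dppa5a from 10.47 to 8.90. The part of germ cell markers in the drop of Kit was not tested. Within the list, Ddx4, an RNA helicase gene of germ cells, rose between the stages by 1.57 ± 0.08 in females and 0.93 ± 0.08 in males. Nanog fell by 1.11 ± 0.13 and 1.04 ± 0.13, values that depend on the floor. At E14.5 the KO female (6.91) and both males (6.21 in WT, 5.99 in KO) were under it. In the KO comparisons none of its 10 fitted genes passed (0 to 4 with an unadjusted p under 0.05, limma). Mast cells and melanoblasts also carry Kit, and their list summed to 10.14 to 10.51, with Mcpt4, Fcer1a, Tyrp1 and Tyr under the floor on every array. The remaining lists ranged over the arrays from 7.39 to 10.14 for meiotic germ cells, 11.58 to 13.02 for Sertoli cells, 11.13 to 13.33 for Leydig and steroidogenic cells, 9.13 to 9.66 for adrenocortical cells, 10.75 to 11.21 for macrophages and blood, and 11.01 to 11.65 for the mesonephros.

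Pregranulosa markers, those of the supporting cells of the ovary, summed to 11.94 and 10.49 in WT and KO females at E12.5 and to 11.55 and 10.76 at E14.5. In males they summed to 10.95 and 10.29 at E12.5 and to 10.75 and 10.94 at E14.5. The sums cover the 6 genes measured on every array, among them Wnt4, the gene knocked out. They leave out Rspo1, which was missing on the KO male array of E12.5. Rspo1 was higher in the KO elsewhere: 7.88 (WT) and 8.30 (KO) in females at E12.5, 8.08 and 8.52 at E14.5, and 7.19 and 7.84 in males at E14.5. The sums were lower in the 3 pairs in which Kitl was lower in the KO. They were higher in the KO male at E14.5, where Kitl was too. Their part in the Kitl values was not tested. For Cxcl12, endothelial markers summed to 12.31 to 12.73 and stromal ones to 13.84 to 14.49 over the 8 arrays. At E12.5 the KO minus WT change of the endothelial sum was from 12.49 to 12.44 in females and from 12.57 to 12.73 in males, and that of the stromal sum from 13.84 to 13.84 and from 14.19 to 14.37. Star, which brings cholesterol to the steroid-making enzymes, rose in the KO at E12.5 by 1.0002 ± 0.09 (limma, adjusted p = 0.0433), a value that depends on the floor because the WT female, at 6.68, was under it. The steroidogenic gene Cyp11a1 was at 0.85 ± 0.19 (adjusted p = 0.426), the adrenocortical Mc2r at 0.39 ± 0.05 (adjusted p = 0.119) and the stromal Postn at 0.78 ± 0.12 (adjusted p = 0.198). Postn went from 9.56 in the WT to 10.11 in the KO for females and from 9.30 to 10.33 for males. For Cyp11a1 too the WT female of E12.5, at 6.79, was under the floor. These 4 genes were picked after their values were seen. In KO minus WT at E12.5 over both sexes, 8 of 11 fitted stromal genes were higher in the KO and 3 lower, with a median of 0.06. Of 7 fitted Leydig and steroidogenic genes, 5 were higher and 1 lower, with a median of 0.06. The 2 fitted adrenocortical genes were higher, with a median of 0.28. The median of all fitted probe sets was 0.0. The part of these markers in the Cxcl12 values was not tested.

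**Figure D4:**
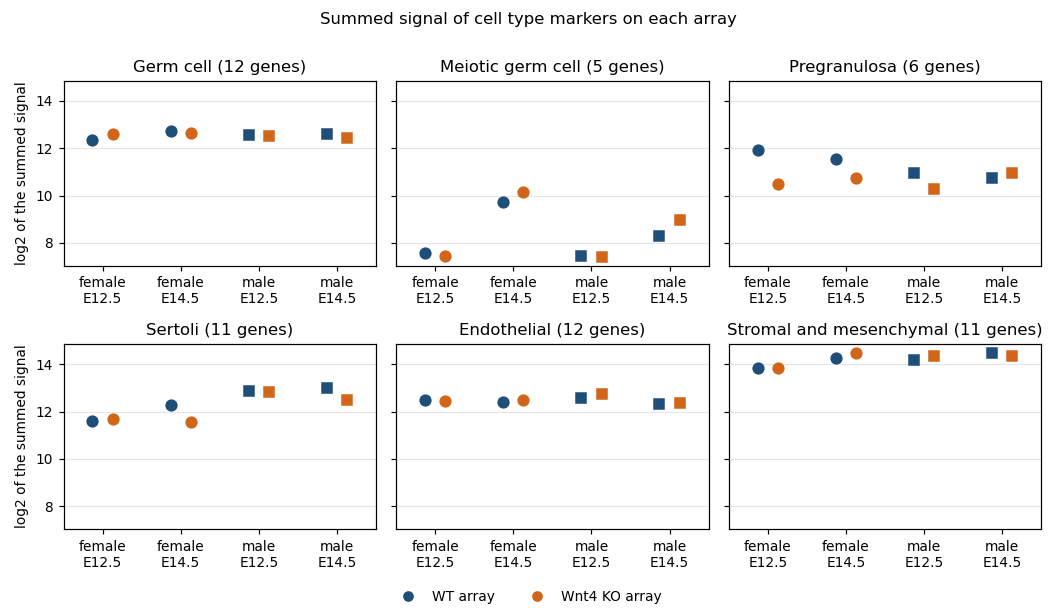
Log2 of the summed signal (vertical axis) of the genes measured on every array, for 6 cell type marker lists, with WT in blue and KO in orange, circles for females and squares for males. Germ cell markers lie between 12.36 and 12.71 on every array, while pregranulosa markers lie at 11.94 in the WT female and 10.49 in the KO female at E12.5.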

How the data were processed

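Per the labels, total RNA of dissected gonads was labelled as biotinylated cRNA and hybridised to MG_U74Av2 arrays. The deposited values are log2 signals of 12488 probe sets, made by the authors with MAS5 per the submitters' processing notes; the sources used here do not state its version or scaling. In the deposited KO male E12.5 column, 14 cells held date serial numbers in place of log2 values, a unit classed as other, and were set to missing; none was a member's, and 1 was that of the marker gene Rspo1. Each array was centred on the mean of the array medians (7.51; medians 7.04 to 7.85), then floored at the 40th percentile (6.99). Of the probe sets other than 66 controls, 8452 exceeded the floor on 2 or more arrays and were fitted.

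limma 3.58.1 in R 4.3.3 (lmFit, eBayes with an intensity trend; two-sided) fitted sex × genotype plus sex × stage, and for genotype within stage the model stage × genotype plus stage × sex, with 2 residual degrees of freedom each and 2.77 and 4.38 prior ones. P-values were adjusted by Benjamini-Hochberg at 0.05. Cxcl12 is represented by its probe set of highest mean, with the others beside it. In each pathway list, up to 4 genes with the largest fitted difference could be named, and for likeness the 5 genes with the highest r. The cell type lists were germ cell, meiotic germ cell, pregranulosa, Sertoli, Leydig, adrenocortical, endothelial, macrophage and blood, mast cell and melanoblast, stromal, and mesonephros. The members and lists were chosen with earlier results of these data known. The fit was tested on simulated data. Alternatives were quantile normalization, no centring, other floors and filters, no trend, 1 genotype effect, other probe sets, and arrays left out. Promoter windows are from RefSeq (GRCm38.p6). Arrays are single samples, so their number limits the precision.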

Additional observations from a re-analysis of the deposited data

Results flagged for a closer look

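Both results below differ between the sexes in their change from E12.5 to E14.5 by a test of that difference. For Kitl the stage change in males minus that in females was -2.26 ± 0.29 (limma, adjusted p = 0.00214), from -2.34 in males and -0.08 in females. For Cxcl12 probe set 160511_at it was -1.86 ± 0.34 (limma, adjusted p = 0.00660), from -0.98 in males and 0.88 in females, while the other Cxcl12 probe sets gave -0.13 and 0.79 with adjusted p of 0.784 and 0.135. Without 1 array the Kitl difference lay between -1.84 and -2.68 and passed 8 times of 8, and that of 160511_at lay between -1.42 and -2.30 and passed 4 times of 8, lost without the WT female of E12.5, the KO male of E12.5, the WT female of E14.5 or the KO male of E14.5. Both rest on the E14.5 male arrays, which stood apart on the array as a whole. That of 160511_at rests also on its rise in females, 1.12 in WT and 0.63 in KO. The WT value uses the E14.5 female array whose label is in doubt.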

How the results depend on the processing

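Of 556 refitted member differences, 485 kept their direction and side of the threshold, 16 lost the call, 10 gained one and 45 changed sign, 43 of them with neither value past the threshold. Kitl in males between the stages, Kitl between the sexes at E14.5 and its stage difference between the sexes kept their calls in all 16 alternatives each, as did Kit in males between the stages. The causes of the changes below were not tested, beyond the fewer arrays of some fits.

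The number of member genes past the threshold moved as follows. Between the stages in females (1, Kit) it was 2 with no centring, 2 with the floor at the 20th percentile, 0 with no filter, 0 without both E14.5 male arrays, 0 to 0 with 1 array left out, and 2 with no filter and no floor, an alternative chosen after seeing the data. Without both E14.5 male arrays, or with 1 array left out, no probe set at all kept its call between the stages in females. Over all probe sets, calls between the stages in females were 1949 of 8452 in the main fit and 5156 of 8361 with no centring. They were 2732 of 10564 with the 20th-percentile floor, 40 of 12422 with no filter and 3794 of 12422 with no filter and no floor. For the stage change in males minus females (1) the number of member genes was 3 with the 20th-percentile floor and 2 with no floor. It was 3 with no filter and no floor. In those fits 7385 of 10564, 6158 of 8452 and 8793 of 12422 probe sets passed, against 5835 of 8452 in the main fit. Between the sexes at E12.5 (0) the number of member genes was 1 with the 20th-percentile floor, where 2056 of 10564 probe sets passed. It was 1 with no filter and no floor, where 3488 of 12422 passed, against 1377 of 8452 in the main fit. Between the sexes at E14.5 (2) it was 1 with no filter and 1 to 2 with 1 array left out. Over all probe sets, 5774 of 12422 passed between the sexes at E14.5 with no filter, against 6551 of 8452 in the main fit. For KO minus WT at E12.5 (0) the number of member genes was 1 with no floor. It was 1 with no filter and no floor, and the gene was Cxcl12 each time. There 67 of 8452 and 80 of 12422 probe sets passed, against 7 of 8452 in the main fit. With no centring the median of all fitted probe sets moved to -0.27 between the stages in females, -0.69 in males and -0.41 for their difference, and to 0.12 and -0.27 between the sexes at E12.5 and E14.5; there Kitl in females was at -0.34 and Cxcl12 in males at -1.01 between the stages, both past the threshold. The split of calls in males between the stages was then 787 higher and 6329 lower, against 3208 and 3369; in females it was 270 and 4886 against 711 and 1238.

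Signs turned as follows. Without both E14.5 male arrays, Kitl was at -0.18 in KO males and at -0.36 for the KO effect at E14.5 minus E12.5, and Cxcl12 at 0.40 for the KO effect in males minus females. Quantile normalization gave Cxcl12 0.071 in males between the stages, 0.092 for its stage difference between the sexes, and Kitl 0.0019 for KO at E14.5. Kitl at KO E14.5 was 0.34 with the 20th-percentile floor, with no floor, and with no filter and no floor. Cxcl12 was at 0.010 on 162234_f_at and 0.88 on 160511_at between the stages in females, 0.80 on 162234_f_at in males, 0.79 on 162234_f_at for the stage difference, -0.020 on 162234_f_at and -0.057 on 160511_at between the sexes at E12.5, and -1.92 on 160511_at between the sexes at E14.5.

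With 1 array left out, values with a change of sign ranged as follows. Kit was at -0.38 to 0.015 for KO in females, -0.11 to 0.29 for KO males minus females, -0.18 to 0.015 for KO at E12.5 and -0.29 to 0.083 for KO at E14.5 minus E12.5. Kitl was at -0.18 to 0.66 for KO in males, -0.75 to 0.66 for KO at E14.5 and -0.36 to 1.05 for KO at E14.5 minus E12.5. Cxcl12 was at -0.025 to 1.14 for KO in males, -0.77 to 0.40 for KO males minus females, -0.27 to 0.082 and -0.81 to 0.35 between the stages in females and males, -0.71 to 0.45 for their difference, -0.12 to 1.04 between the sexes at E14.5 and -0.025 to 0.56 for KO at E14.5. No paired analysis was possible because each group holds 1 array and the labels give no replicate numbers. Single arrays, and Kit in E14.5 males, Kitl in the WT E14.5 male and Cxcr4 throughout lying under the floor, limit what can be measured.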
